A study of Daphnia magna with 24 samples.

Results

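The comparison concerns Daphnia magna kept in water from below the portal of Walker Mine, California, against Daphnia magna kept in water from below its tailings. It rests on 12 of the 24 arrays of the series, or 6 of its 12 exposures, chosen by their titles alone: 3 exposures to water taken downstream of the mine portal and 3 to water taken downstream of the tailings. A mine portal is the mouth of the workings, and tailings are the ground rock left after the ore has been processed. The design text says that the sites carried different amounts of copper and gives no concentrations, so the waters were not ordered by copper.

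All exposures used genetically uniform adult females, 14 to 16 days old, held for 24 h in the laboratory in field water. Animals of every group were raised in COMBO, a defined freshwater medium, and unexposed animals from COMBO supplied the control channel of every array. Each exposure pooled 10 to 15 whole animals and was hybridised on 2 arrays with the dyes exchanged. A pool of whole animals cannot tell less RNA per cell from fewer cells of a type. The 3 exposures to upstream water and the 3 to Little Grizzly Creek water, handled in the same way, entered the fit for its estimate of spread and are used below for comparison.

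Daphnia magna is a filter-feeding crustacean and a standard animal of aquatic toxicity testing. Copper is an essential trace metal that serves as a cofactor of enzymes such as cytochrome c oxidase and copper-zinc superoxide dismutase. In excess it promotes oxidative damage and disturbs sodium uptake in freshwater crustaceans, and animals bind surplus metal with metallothioneins. Which of these functions the features below represent cannot be said: the deposited table gives only identifiers such as P3DG10, and 0 of 7680 matched any of the 28335 genes in the RefSeq table for this species. Several features may report on the same transcript, so counts are of features and not of genes.

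Values are log ratios of exposed over control animals, read as log2, so that 1 unit is a 2-fold change. Neither the base nor the direction is stated, and the direction is the likely one. If it runs the other way, every sign below turns. An exposure value is the mean of its 2 arrays and is blank where either array is blank. Features with values in at least 2 exposures of each of the 4 sites were tested, 6504 in all, with limma across the 12 exposures. P-values were adjusted by the Benjamini-Hochberg method across the 6504, and a feature passed at an adjusted p under 0.05.

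The exposures of a site differed in how widely their values spread. Across features the SD of the log ratios was 0.545, 0.286 and 0.789 in portal exposures 1, 2 and 3, and 0.498, 0.523 and 0.759 in tailings exposures 1, 2 and 3. The second portal exposure thus stayed closest to control, and the third departed most and held the most blanks, with 5106 and 6225 values on its arrays. Those 2 exposures correlated at -0.00663 across features, and the other pairs at 0.375 and 0.49 in portal water and from 0.192 to 0.584 in tailings water. Of 132 same-dye pairs of arrays 5 correlated below -0.3. Each of the 5 joined an exposure 2 to an exposure 3. Upstream exposure 3 was in 3 of them, upstream exposure 2, portal exposure 3 and Little Grizzly Creek exposure 2 in 2 each, and tailings exposure 2 in 1. Whether any of these exposures was deposited with its sign turned was not tested, and such pairs alone cannot decide it. Tailings exposure 2 correlated at 0.584 with tailings exposure 1 and at 0.192 with tailings exposure 3, and its own dye-swapped arrays at 0.87. Portal exposure 3 correlated at 0.49 with portal exposure 1, and its own dye-swapped arrays at 0.616. With portal exposure 3 turned 63 features differed between portal and tailings water, and with tailings exposure 2 turned 0 did (514 at an unadjusted p under 0.05, by limma), against 260 as deposited.

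By the number of features far from control, the sites overlapped. Among the 4169 tested features with a value in all 6 exposures, the share at least 1 unit from 0 was 4.56%, 0.408% and 12% in portal exposures 1, 2 and 3. In tailings exposures 1, 2 and 3 it was 6.31%, 5.13% and 9.21%. The portal values lay on both sides of all tailings values. The means of 5.66 ± 5.87% and 6.88 ± 2.1% (SD, n = 3 each) gave p = 0.8 in a two-sided exact permutation test, which cannot go below 0.1 with 3 against 3.

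Single features differed between the waters. By limma, 260 of 6504 features (4%) had unequal log ratios in portal and tailings water, of which 220 (3.38%) were lower and 40 (0.615%) higher in portal water. The 40 differed by a median of 1.4 units and the 220 by a median of 0.798, where the median absolute difference over all tested features was 0.21. Of the 40, 31 were at least 1 unit apart, and of the 220, 59. These calls lean on the spread pooled over 4 sites: 0 features passed when only the 6 portal and tailings exposures were fitted (900 at an unadjusted p under 0.05, by limma). Leaving out portal exposure 1 or 3 gave 159 or 138, and leaving out tailings exposure 1 or 3 gave 137 or 143. Of the 260 calls 15.4% were higher in portal water, against 44% of 282 in a fit of 24 arrays with a dye term. Only 111 of the 260 were among those 282.

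**Figure D1:**
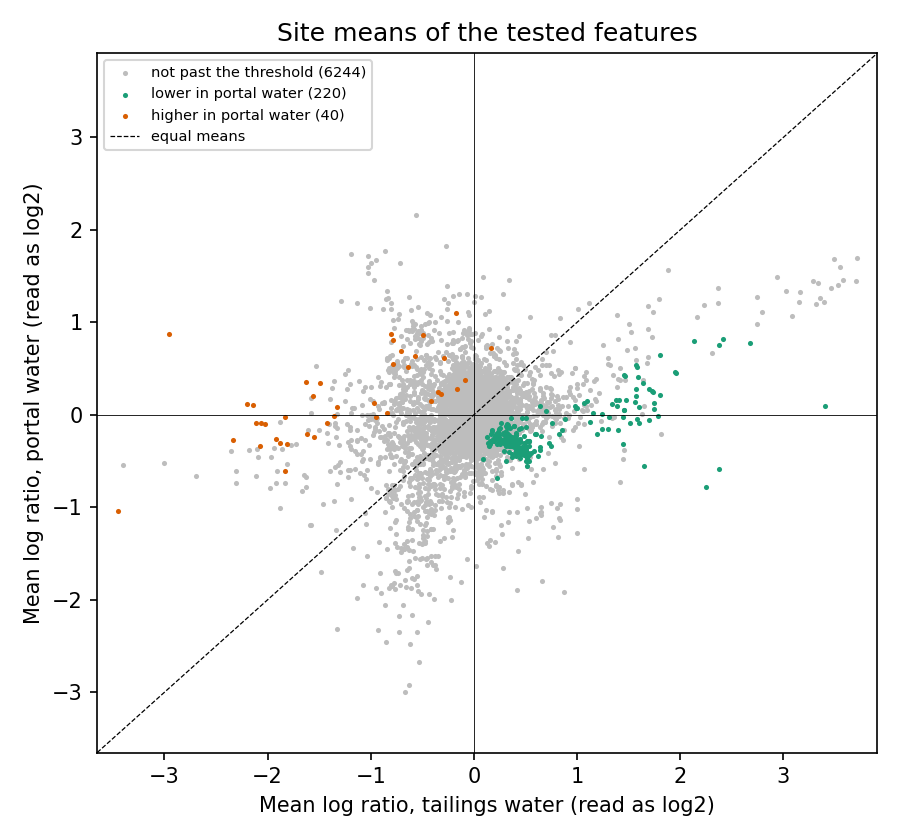
Each point is 1 of the 6504 tested features, with its mean log ratio in tailings water on the horizontal axis and in portal water on the vertical axis, both read as log2 units. Features lower in portal than in tailings water (220, green) fall into a dense patch near the origin and a band to the right along a portal mean near 0; those higher in portal water (40, orange) lie mostly to the left, at negative tailings means.

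One group of these features was displaced from control in tailings water and near control in portal water. Of the 220 lower in portal water, 78 had a tailings mean of at least 0.5 and a portal mean within 0.5 of 0. Their medians were 1.18, 0.88 and 1.17 in tailings exposures 1, 2 and 3, and -0.0413, -0.0356 and -0.266 in portal exposures 1, 2 and 3. All 78 also passed the test of tailings water against control. Of the 40 higher in portal water, 22 had a tailings mean of -0.5 or below with a portal mean within 0.5 of 0. These medians and counts follow from the contrast that chose the features and are given as description.

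A second group of the features lower in portal water was made up of small shifts on either side of 0. It held 127 of the 220, with both site means within 0.5 of 0. Their portal means ran from -0.499 to -0.0359, so all 127 were negative, and their tailings means from 0.0892 to 0.496, so all were positive. The medians were -0.366, -0.119 and -0.348 in portal exposures 1, 2 and 3, against 0.274, 0.448 and 0.282 in tailings exposures 1, 2 and 3. Of these 127, 82 passed the test of tailings water against control, as did 8.49% of all tested features, and the tailings exposures had a part in choosing them. Their median difference between sites was -0.613, with a median SD among exposures of 0.164 in portal and 0.117 in tailings water.

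Many larger differences did not pass. In all, 471 features were at least 1 unit apart between the sites, and 381 of them were not called. Their median SD among the portal exposures was 1.12, against 0.183 for the called features and 0.207 over the 4169 features with all 6 values. Irrespective of any test, all 3 portal exposures lay below all 3 tailings exposures in 15.8% of those 4169 features and above them in 10.8%. Absence from the 260 does not show that a feature was alike at both sites.

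The called features with the largest differences, among those with all 6 values and no overlap between the sites, are given in full. P3DG10 stood at -0.0649, -1.21 and -0.474 in portal exposures 1, 2 and 3 and at 3.08, 1.57 and 2.5 in tailings exposures 1, 2 and 3. All portal values were below control and all tailings values above it, with the nearest pair more than 1 unit apart, but the first portal value averages arrays at 0.576 and -0.706. The difference was -2.96 (SE 0.498, adjusted p = 0.0137 by limma), about 7.79-fold if the base is 2. P5DE3 stood at -0.593, -0.656 and -0.397 in portal water and at 2.32, 1.16 and 1.46 in tailings water, a difference of -2.2 (SE 0.338, adjusted p = 0.0125 by limma). The portal exposures of P5DE3 were nearly equal, although 1 array of the third read 0.189 and its dye-swapped partner -0.982.

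P6BC11 and P11CC4 ran the other way. P6BC11 was at 0.188, -0.0774 and 0.201 in portal exposures 1, 2 and 3, close to control in each. In tailings exposures 1, 2 and 3 it was at -1.9, -1.48 and -3.04, and the difference was 2.24 (SE 0.348, adjusted p = 0.0125 by limma). P11CC4 was at -0.592, -0.501 and 0.287 in portal water and at -2.31, -2.48 and -2.21 in tailings water, so that its tailings exposures were the tighter group. Its difference of 2.07 (SE 0.234, adjusted p = 0.00583 by limma) was not called after quantile normalization between exposures (adjusted p = 0.134), and neither were those of P3DG10 (0.058) and P5DE3 (0.0529) by limma.

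**Figure D2:**
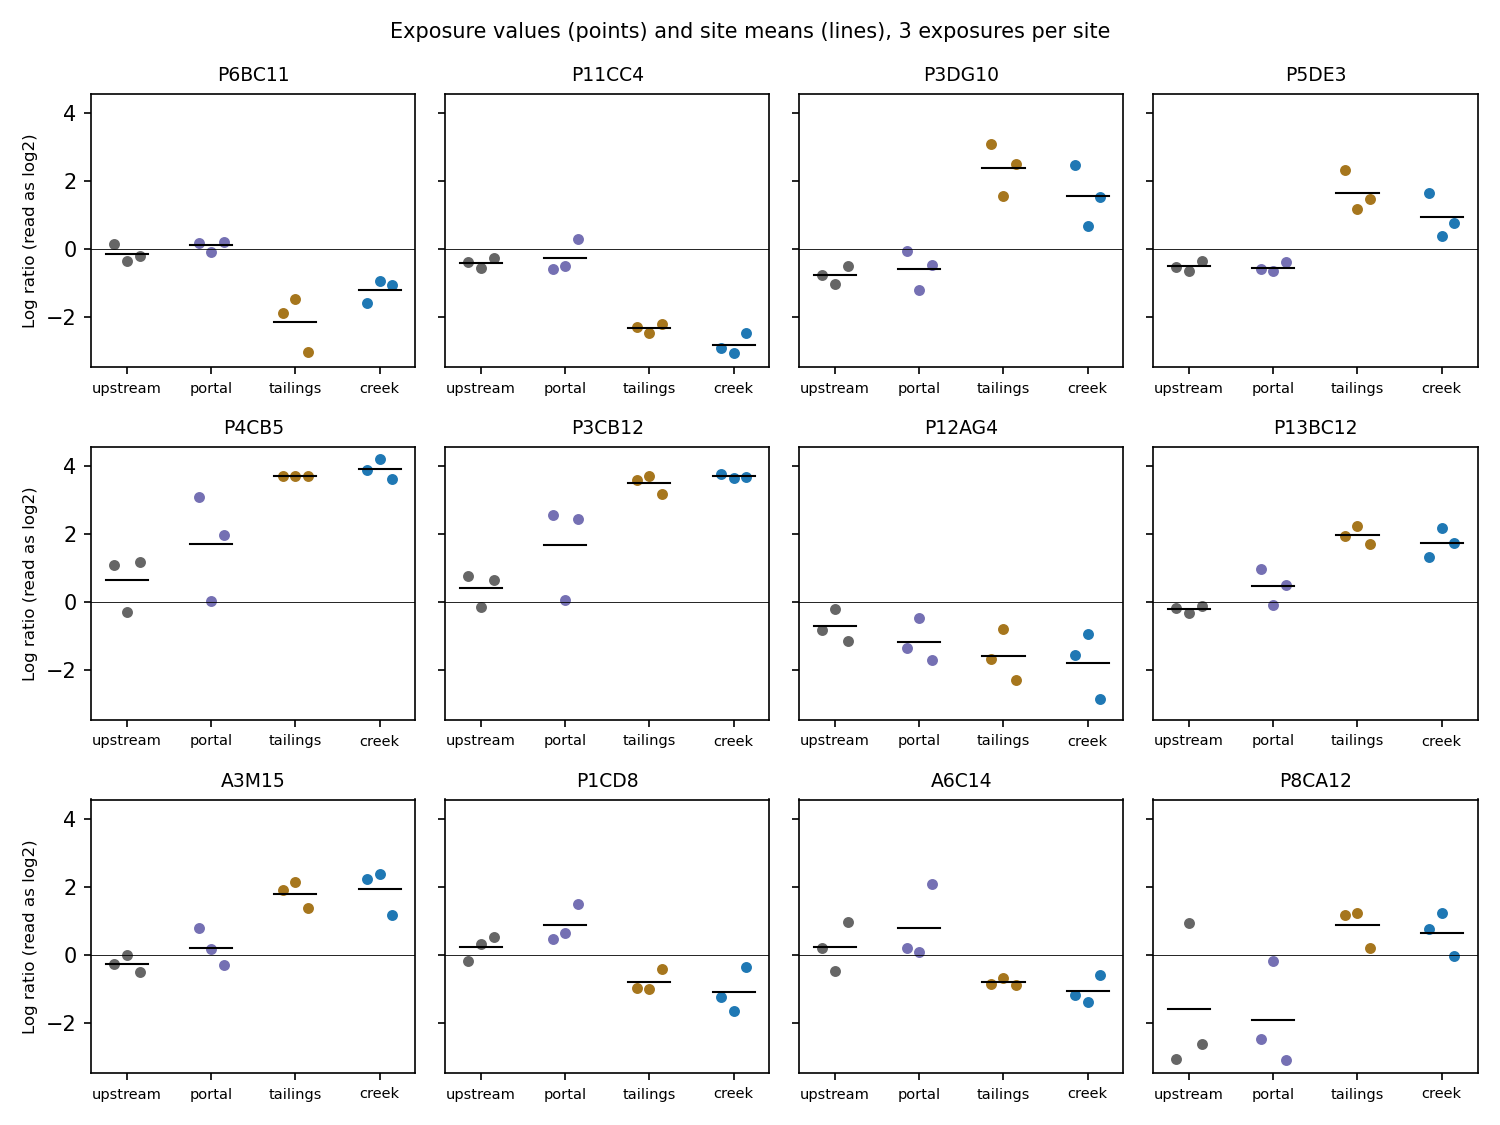
Log ratios to control, read as log2, of the 12 features named in the text, in the 3 exposures (points) of each of the 4 sites, with lines at the site means. The top row shows P6BC11 and P11CC4 low in tailings and Little Grizzly Creek ("creek") water, and P3DG10 and P5DE3 high there; in P4CB5 and P3CB12 the second portal exposure sits at control while the other portal exposures do not.

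Features were next sorted by the site at which they stood away from control. A feature was taken to stand high or low at a site when all 3 of its exposures there had the same sign and their mean was at least 1 from 0. This sorting is a description. Of the 4169 features with all 6 values, 15 stood away from control in the same direction at both sites, 127 in tailings water alone, 67 in portal water alone, and 0 in opposite directions. Single exposures weighed on these counts: without portal exposure 2 the first was 28 and the third 235, without tailings exposure 2 they were 46 and 38, and without portal exposure 3 the second was 196 and the third 118. A feature past such a mark at one site and short of it at the other has not been shown to differ. Each class was therefore also read against the direct test. It was passed by 4% of all tested features and by 220 of the 4169. Of those with all 6 values that passed, 24 were higher and 196 lower in portal water.

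Features high in tailings water alone numbered 65, of which 35 passed the direct test, all of them lower in portal water. The class medians were 1.61, 1.05 and 1.64 in tailings exposures 1, 2 and 3 and 0.223, 0.0996 and 0.148 in portal exposures 1, 2 and 3. P13BC12 had the highest tailings mean among those that passed the direct test with a portal mean within 0.5 of control. It rose to 1.94, 2.23 and 1.71 in tailings exposures 1, 2 and 3 (adjusted p = 0.000521 against control by limma), while its portal exposures were at 0.964, -0.0979 and 0.499. No portal exposure of P13BC12 reached the lowest tailings exposure, and the difference was -1.51 (SE 0.279, adjusted p = 0.0182 by limma; 0.0526 to 0.0594 without portal exposure 3 or tailings exposure 1 or 2, and 0.0888 after quantile normalization).

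A3M15 belonged to the same class. It stood at 0.784, 0.159 and -0.31 in portal exposures 1, 2 and 3 and at 1.9, 2.14 and 1.37 in tailings exposures 1, 2 and 3. The groups did not overlap, but the difference of -1.59 (SE 0.365, adjusted p = 0.0416 by limma) passed in only 10 of 25 alternatives, and adjusted p was 0.131 without portal exposure 3. Its identifier is of a different kind from those of the features above, a point taken up below.

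Features low in tailings water alone numbered 62, of which 13 passed the direct test, all higher in portal water, P11CC4 and P6BC11 among them. The medians were -1.41, -1.64 and -1.34 in tailings exposures 1, 2 and 3. In portal exposures 1, 2 and 3 they were -0.945, -0.233 and 0.383, so the first portal exposure, with 26 of the 62 at least 1 unit from control, was low as well. The share that passed was not compared between the classes by a test.

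Portal water alone held 61 low and 6 high features, and 0 of the 67 passed the direct test. The 61 had medians of -1.31, -0.505 and -2.45 in portal exposures 1, 2 and 3. In the third tailings exposure their median was -1.64, with 52 of them at least 1 unit from control, and it was -0.313 and 0.637 in the first and second. In upstream exposures 1, 2 and 3 it was -1.21, 0.464 and -1.59, and in Little Grizzly Creek exposures 1, 2 and 3 -0.746, 0.213 and -2.23. At the level of single exposures these features were therefore not low in portal water alone. Of the 61, 53 had identifiers that begin with A, although only 894 of the 4169 features with all 6 values do. The 6 high ones had a median of 2.17 in portal exposure 3 and of 0.508 and 0.346 in exposures 1 and 2, and 0 of the 6 reached 1 unit in either of these.

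At the mark of 1, standing away from control at both sites was mostly a matter of high values. Of the 15 such features 14 were high and 1 was low, and 0 passed the direct test. With the mark lowered to 0.5 the split was nearly even, at 33 high and 28 low. The 14 had medians of 2.54, 2.13 and 2.24 in tailings exposures 1, 2 and 3. In portal exposures 1, 2 and 3 the medians were 1.59, 0.381 and 1.86, and 12, 0 and 14 of the features were at least 1 unit from control. The second portal exposure thus stayed within 1 unit of control for all 14, and without it 28 features stood away from control at both sites.

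P4CB5 came first in this class by the smaller of its site means. Its tailings exposures were nearly identical at 3.71, 3.71 and 3.72 (adjusted p = 0.00139 against control by limma). Its portal exposures were at 3.09, 0.026 and 1.97, and the dye-swapped arrays of the second read 0.00633 and 0.0457, so both arrays put it at control. The mean of 1.7 in portal water did not pass against control (adjusted p = 0.0869 by limma) and did without portal exposure 2, at 2.53 (adjusted p = 0.0221). The difference between the sites, -2.02 (SE 0.662), did not pass (adjusted p = 0.137 by limma).

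P3CB12 had the same form. It was at 2.55, 0.0677 and 2.44 in portal exposures 1, 2 and 3 and at 3.59, 3.71 and 3.18 in tailings exposures 1, 2 and 3. The third portal value averages arrays at 4.15 and 0.726. Against control the tailings mean passed (adjusted p = 0.000983) and the portal mean did not (adjusted p = 0.0751; 0.00259 without portal exposure 2, both by limma). The single feature low at both sites was P12AG4, at -1.37, -0.463 and -1.72 in portal and -1.67, -0.791 and -2.3 in tailings water. It was below 0 in the other waters as well. Upstream exposures 1, 2 and 3 were at -0.817, -0.205 and -1.14, and Little Grizzly Creek exposures 1, 2 and 3 at -1.55, -0.943 and -2.87. Its exposures overlapped between portal and tailings water, which differed by 0.4 (SE 0.552, adjusted p = 0.747 by limma).

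At the mark of 1, opposite directions were met by 0 features, by 8 without the condition on single exposures, by 2 without portal exposure 2 and by 1 without tailings exposure 3. With the mark lowered to 0.5, 44 features stood away from control in opposite directions, 37 of them high in portal and low in tailings water and 7 the reverse. Of the 37, 4 passed the direct test, and of the 7, 6 passed, P3DG10 and P5DE3 among them. By sign alone, 103 features had all 3 portal exposures above 0 and all 3 tailings exposures below, and 258 the reverse. The direct test was passed by 7 of the 103 and 145 of the 258.

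P1CD8 came first among features high in portal and low in tailings water. Its portal exposures were at 0.464, 0.658 and 1.5 and its tailings exposures at -0.98, -0.991 and -0.427. Every portal value lay above every tailings value, and the difference was 1.67 (SE 0.369, adjusted p = 0.0343 by limma), but it passed in 10 of 25 alternatives and had an adjusted p from 0.0526 to 0.116 with each portal or tailings exposure omitted in turn. A6C14, next in this order, was at 0.197, 0.0966 and 2.08 in portal and at -0.846, -0.684 and -0.875 in tailings water. Its portal mean came mainly from the third exposure, and the difference did not pass (adjusted p = 0.136 by limma). In the reverse direction P8CA12 had portal exposures at -2.47, -0.178 and -3.11 and tailings exposures at 1.17, 1.24 and 0.201, and its difference of -2.79 (SE 1.04) did not pass either (adjusted p = 0.18 by limma).

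**Figure D3:**
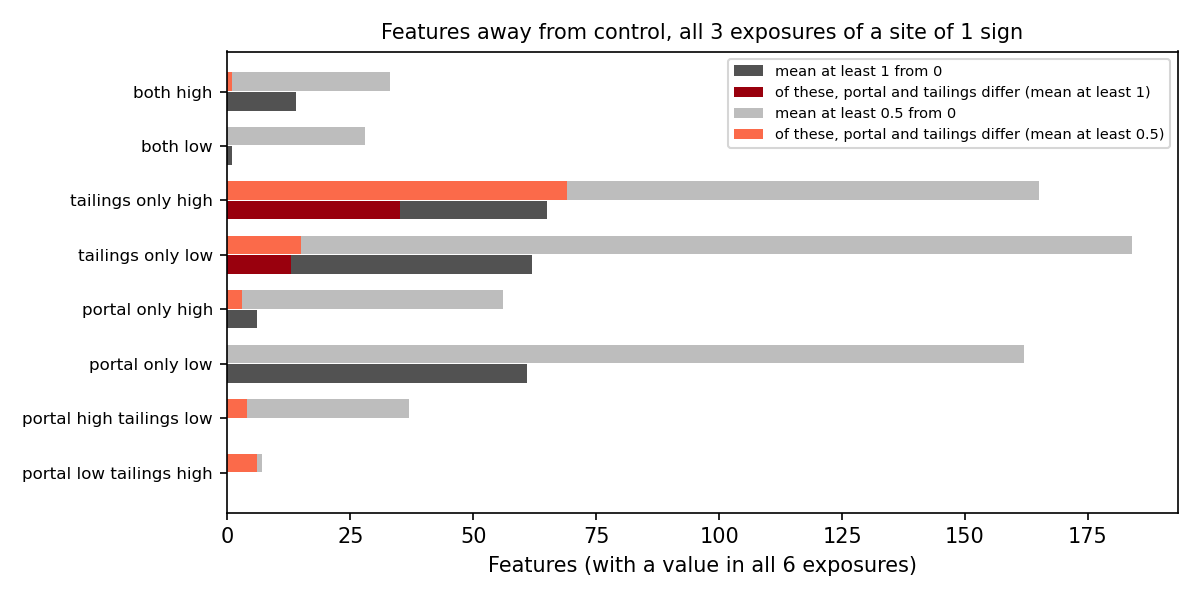
Number of features (horizontal axis, among the 4169 with a value in all 6 exposures) that stood high or low at both sites, at 1 site, or in opposite directions, for a site mean at least 1 (dark) or 0.5 (light) from 0; the red part of each bar passed the direct test of portal against tailings water. The red parts lie mainly in the features high in tailings water alone, 35 of 65 and 69 of 165, and 0 of the 61 and 162 low in portal water alone have any.

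Seen from tailings water, the calls against control divided by what portal water did. In tailings water 552 features (8.49%) passed against control by limma, of which 398 rose (6.12%) and 154 fell (2.37%); the total was 272, 312 or 301 without tailings exposure 1, 2 or 3. Portal water gave 0 features by limma (0%, with 337 adjusted calls without portal exposure 2), and its smallest adjusted p by limma was 0.0717. At an unadjusted p under 0.05 by limma, portal water had 1428 features and tailings water 1278. Among the 398, the portal mean was at least 0.5 in 56, within 0.5 of 0 in 335 and at -0.5 or below in 7, and 174 passed the direct test. Among the 154, the portal mean was -0.5 or below in 42, within 0.5 of 0 in 110 and at least 0.5 in 2, and 28 passed it, where 4% of all tested features did. The tailings exposures that chose these features are also an arm of the direct test, so both counts are descriptions. The median of the 154 in portal exposures 1, 2 and 3 was -0.493, -0.217 and 0.0397. Portal and tailings arrays are each set against control animals, and the labels do not say whether they shared control RNA.

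The other waters were read at the features that separated portal from tailings water. Upstream and Little Grizzly Creek exposures take no part in that contrast, though they enter its spread. Of the 220 features lower in portal water, 216 (98.2%) had a higher mean in Little Grizzly Creek than in upstream water, where 48.5% of all tested features did. Of the 40 higher in portal water, 40 had a lower mean in Little Grizzly Creek than in upstream water, where 51.5% of all tested features did. For the 220, the medians of the site means were -0.264 in portal, -0.191 in upstream, 0.149 in Little Grizzly Creek and 0.448 in tailings water. For the 40 they were 0.125 and -0.143 in portal and upstream water and -1.39 and -1.27 in water from the tailings and from Little Grizzly Creek. The small-shift group of 127 had medians of -0.283, -0.203, 0.348 and 0.118 in portal, upstream, tailings and creek water.

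**Figure D4:**
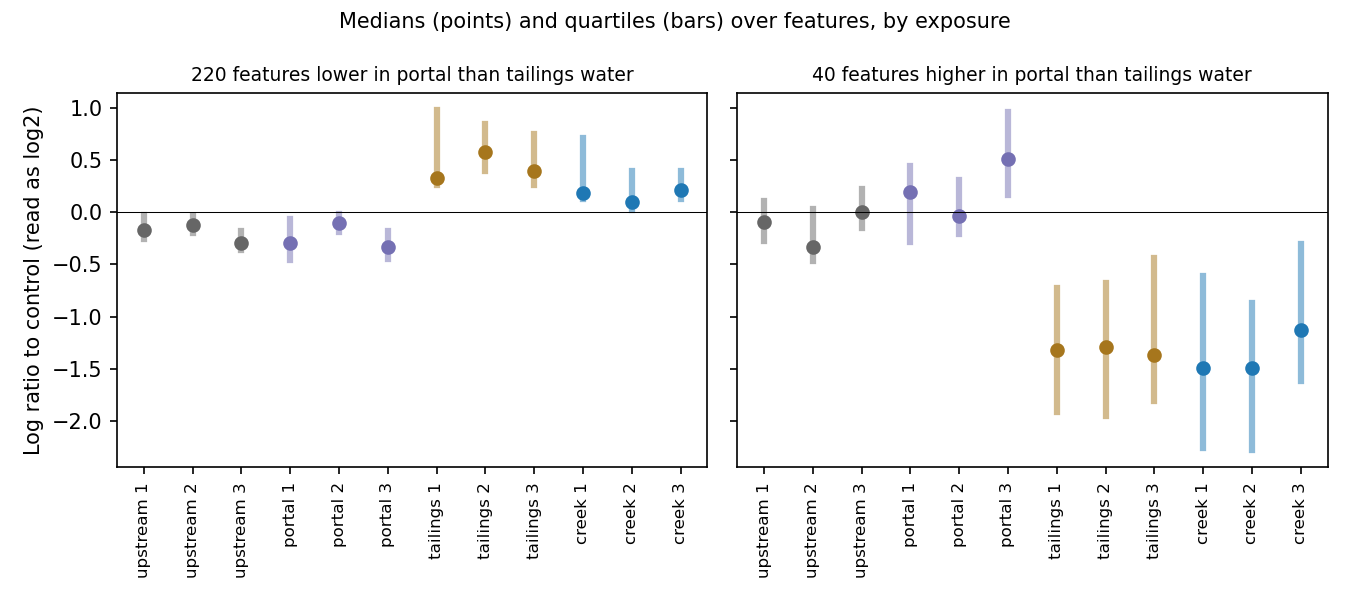
Medians (points) and quartiles (bars) of the log ratios, read as log2, of the 220 features lower in portal water (left) and the 40 higher in portal water (right), in each of the 12 exposures; the features were chosen on the portal and tailings exposures. In the 220, the Little Grizzly Creek ("creek") medians are 0.183, 0.1 and 0.215 and the upstream medians -0.175, -0.123 and -0.293.

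Among the named features, P3DG10 was at -0.772, -1.04 and -0.503 in upstream exposures 1, 2 and 3 and at 2.47, 0.687 and 1.52 in Little Grizzly Creek exposures 1, 2 and 3. P11CC4 was at -0.386, -0.559 and -0.265 in upstream and at -2.92, -3.07 and -2.47 in Little Grizzly Creek water. In both features portal values lay near upstream values, and tailings values nearer those of Little Grizzly Creek.

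Portal and tailings exposures that had no part in choosing features were examined next. For each of the 9 ways to leave out 1 portal and 1 tailings exposure, features were called on the rest, and the pair left out was then read. One of the 9 gave 0 calls and the others between 9 and 194. In the pairs left out, 92.5% to 100% of the features called lower in portal water were again lower, where 46.4% to 55.5% of all features were. Of those called higher, 82.9% to 100% were again higher, where 44.5% to 53.6% of all features were. The values of 100% for higher calls rest on 1 to 12 features. Of these 8, 3 rest on 4 to 6 features called lower. Those with portal exposure 2 left out, rest on 140 to 160 and gave 92.5% to 100%.

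Identifiers on the array are of 2 kinds, which were not equally represented among the differences. There are 13 series from P1 to P13 and 7 from A1 to A7, each of 384 features, and what the letters stand for is not given. Of the tested P features 4.66% differed, and of the A features 2.3%. Among the P features 205 of 4678 (4.38%) were lower and 13 (0.278%) higher in portal water. Among the A features 15 of 1826 (0.821%) were lower and 27 (1.48%) higher. The higher calls thus made up 5.96% of the P calls and 64.3% of the A calls. This contrast was not tested. P calls were mostly lower in portal water in every alternative with calls. Among A calls the higher ones fell to 37% with the exposure number as a fixed block, but were 68.5% with it as a random block. They were 43.5% with a trended, robust prior and 48.3% without portal exposure 1.

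**Figure D5:**
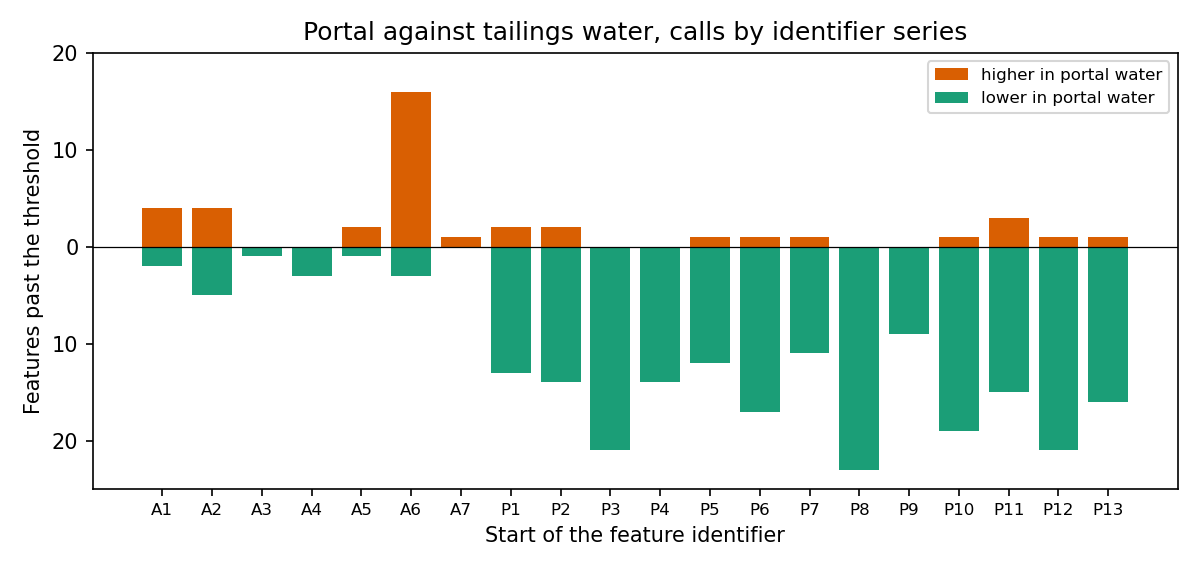
Features past the threshold in portal against tailings water for each identifier series (horizontal axis), with those higher in portal water drawn upward and those lower drawn downward. Each P series has between 9 and 23 lower calls, and A6 has 16 of the 40 higher calls.

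Lower calls were spread over all P series, from 9 in P9 to 23 in P8. Of the 127 small shifts, 122 had P identifiers. Higher calls gathered in A6, with 16 of the 40 from 325 tested features. They were chosen for lying below portal water in tailings water. All 16 fell in tailings water by limma, as did 2.37% of all tested features, with means from -2.96 to -0.317 and a median of -1.62, and their portal means had a median of -0.0917. Over the 325 the medians were -0.135, -0.0421 and -0.18 in tailings exposures 1, 2 and 3. In Little Grizzly Creek exposures 1, 2 and 3 the medians of the 16 were -2.03, -2.13 and -1.58, and in upstream exposures 1, 2 and 3 they were -0.186, -0.461 and -0.0839. Portal exposure 3 was blank for 7 of the 16. The count in A6 was 2 with a trended, robust prior and 6 after quantile normalization or among features with all 12 values.

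Medians of the 2 kinds of feature also differed by exposure. In tailings exposure 3 the median log ratio was -0.237 over the tested A features and 0.0883 over the P features, and in portal exposure 3 it was -0.14 and -0.00121. In upstream exposure 3 it was -0.143 and 0.0253, and in Little Grizzly Creek exposure 3 -0.194 and 0.0634. In the first 2 exposures of portal and tailings water the A medians lay between -0.0063 and 0.0233 and the P medians between -0.0314 and 0.0206. Upstream exposure 2 had 0.0899 and -0.0645, and Little Grizzly Creek exposure 1 -0.0914 and 0.0433. The part of these offsets in the split of calls was not tested.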

How the data were processed

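The authors deposited 1 log ratio per feature and array for 7680 features on 24 two-colour arrays. Scanning, background correction, normalization and filtering are not given in the sources used here, and the values were read as log2. Array medians ran from -0.0265 to 0.0177, so the deposited log2 ratios were already centred, and they were not rescaled. Channel signals were not used, so spot brightness is not known here. Precision is limited by the 3 exposures per site. Per the labels, exposures of a site are biological replicates, each with 2 dye-swapped technical arrays, which were averaged.

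limma 3.58.1 in R 4.3.3 (lmFit, eBayes) fitted 12 exposures with 1 mean per site. Tested were portal minus tailings and each site mean against 0, which leaves out the spread of control animals where control RNA was shared. The fit was tested on simulated data. Exposure numbers were not taken to pair these sites: deviations of same-numbered exposures correlated at 0.119, 0.153 and -0.0636. Those of differently numbered exposures correlated from -0.314 to 0.247. That check covered portal and tailings exposures alone. Over the tested A features the exposure 3 medians were -0.143, -0.14, -0.237 and -0.194 in upstream, portal, tailings and Little Grizzly Creek water. In exposure 2 they were 0.0899, 0.00134, 0.0233 and -0.0144. A pattern by exposure number across the 4 sites was not tested.

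At most 2 features a direction are named per comparison: the largest differences past the threshold without overlap between exposures, the largest smaller-of-both means for both sites and for opposite signs, and the largest tailings means past the direct test with a portal mean under 0.5. No portal-only feature met the last rule. The comparison, rules and gene lists were chosen with earlier results of these data known. Without gene names the lists could not be counted. Alternatives covered the sites fitted, filters, scaling, blocks, weights, signs and each exposure left out.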

Additional observations from a re-analysis of the deposited data

Results flagged for a closer look

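The test of portal against tailings water is a test of whether 2 sites differ in their change against control, and 260 features passed it. Of the features named above, it was passed by P6BC11 (2.24, portal minus tailings), P11CC4 (2.07), P1CD8 (1.67), P3DG10 (-2.96), P5DE3 (-2.2), A3M15 (-1.59) and P13BC12 (-1.51), all in log2 units with limma's adjusted p under 0.05. Groups held 3 exposures each, too few for a test of single outlying exposures.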

How the results depend on the processing

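Against 260 differing features, 0 passed with only the 6 portal and tailings exposures fitted, 106 after quantile normalization, 413 with exposures weighted, 123 with upstream exposure 2 turned, 63 with portal exposure 3 turned and 0 with tailings exposure 2 turned; leaving out portal or tailings exposures gave 137 to 314. Against 0 portal calls there were 170 among features with all 12 values, 1 after quantile normalization, 252 with a dye term, 954 with weights, and 0 to 337 with exposures left out. Against 552 tailings calls there were 165 in the 6-exposure fit, 0 with tailings exposure 2 turned (264 at an unadjusted p under 0.05, by limma) and 272 to 684 with exposures left out. The exposure number was also used as a block. The pairing check was limited to portal and tailings exposures, so it cannot decide on a pattern by exposure number across all sites. The fixed block gave 636, 1087 and 852 calls (portal minus tailings, portal, tailings) and the random block 561, 0 and 545. At a minimum mean of 0.5, 61 features stood away from control at both sites, 349 in tailings water only, 218 in portal water only and 44 in opposite directions. Without the condition on single exposures 111 did so in portal water only and 8 in opposite directions. Scaling exposures to 1 spread left 5 at both sites and 30 in portal water only. Turning portal exposure 3 left 2 and 14, and turning tailings exposure 2 left 10 in tailings water only. With exposures left out, 12 to 46 were at both sites, 112 to 196 in tailings water only, 38 to 235 in portal water only and 0 to 2 in opposite directions. The difference in share of features far from control turned from -1.23 to 0.0467 points with the mark at 0.5. With tailings exposure 2 turned, P4CB5 (0.454), P3CB12 (0.666) and P12AG4 (-0.128) reversed. For the 18 results on named features, 366 of 450 recomputed values kept their direction and side of the threshold, 64 no longer passed, 17 came to pass and 3 reversed. The 366 include results that did not pass at first and again did not, so they do not measure how often calls held. The 64 come only from results that had passed. The causes were not tested. Turning portal exposure 3 or tailings exposure 2, leaving out upstream or Little Grizzly Creek exposures, and the 9 pairs left out were chosen after seeing the data. Signal over background was not analysed.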
